A study of Oryzias latipes with 15 samples.

Results

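Potassium perchlorate and vitamin C were combined in 1 of the treatments of this medaka study, and the data described here set that combination against perchlorate alone in the testis. Every library labelled with either treatment was taken, which gave 6 of the 15 libraries of the series. The high-dose group was exposed to 10 mg/L potassium perchlorate (3 libraries). The combined group was exposed to 10 mg/L potassium perchlorate and 3 mg/L vitamin C (3 libraries), so perchlorate was common to both groups and the vitamin was the labelled difference. Controls (3 libraries) and a group on vitamin C without perchlorate, also at 3 mg/L (3 libraries), served as reference levels, and a low-dose group of 0.01 mg/L perchlorate (3 libraries) entered the statistical fit only. Medaka, Oryzias latipes, is a small egg-laying fish. The labels call the replicates biological but do not say whether 1 was a single fish or a pool, and they give no strain, age, exposure time or batch. The p-values therefore measure the spread between these libraries.

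Perchlorate competes with iodide at the sodium/iodide symporter, which lowers the iodide supply from which the thyroid makes its hormones. Vitamin C, or ascorbate, is a water-soluble antioxidant and a cofactor of the enzymes that hydroxylate collagen and of the dioxygenases that demethylate DNA and histones. In the fish testis, Sertoli cells enclose cysts of germ cells that pass from spermatogonia through meiosis to sperm, and cells between the cysts make androgens.

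Levels are normalized read counts, the deposited values, which correct for library depth but not for gene length. Values are given in the order of replicates 1, 2 and 3, and where a gene has 2 sets or means, the high-dose group comes before the combined group. High-dose libraries held 3.21, 12.2 and 8.07 M reads and combined libraries held 21.3, 14.1 and 10.5 M, so high-dose replicate 1 was the shallowest of these 6 and carried the most counting error. Testis markers were abundant in all 6: the germ cell helicase ddx4 lay between 7728 and 15164, the Sertoli growth factor gsdf between 8357 and 9980.4, and the sperm tail gene tekt2 between 633 and 1174. In a principal component analysis of these 6 libraries the first component held 54.3% of the variance and separated the groups, with high-dose libraries at -20.4, -81.2 and -33.5 and combined libraries at 48.3, 43.3 and 43.4. High-dose replicate 2 lay farthest out. On the second component, with 26.1% of the variance, high-dose libraries lay at 66.7, -35.6 and 3.00, so their spread was the widest there. Combined replicate 1 lay at 10.5 and combined replicates 2 and 3 at -22.0 and -22.6. Over all tested genes replicate 1 was thus the combined library that stood apart, while replicate 2 did so in the plasma protein genes described further on.

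Adding vitamin C was associated with 1376 genes called higher and 469 called lower than at the high dose alone, of 17778 tested (limma on log2(value + 1), Benjamini-Hochberg adjusted p under 0.05). That is 10.4% of the tested genes, 7.74% higher and 2.64% lower. Called genes that were higher differed by a median of 0.90 on the log2 scale and those that were lower by -1.36, against -0.10 over all tested genes. At least a 4-fold difference was reached by 45 of the higher and 129 of the lower genes. Among the called genes of this fit, rises were thus more numerous and falls larger. Genes called lower had a median level of 83.8 over all libraries and those called higher 471, so the sets were not matched for level. With a filter at a mean of 50, 1479 of 12958 genes were higher and 346 lower, a larger share higher than 7.74%. The lists below were chosen with earlier results of these data known, so a share above that of all genes is no independent support. The all-gene shares set beside each list below were not matched to the level of its members. A list share slightly above 7.74% is therefore no sign of a difference particular to that list. List counts by other tests belong beside larger totals. Over all tested genes 4968 had an unadjusted p under 0.05 in either direction by limma. By edgeR 1791 were higher and 795 lower, and by DESeq2 1993 and 1732. The share of calls that were higher, 74.6%, became 53.5% with DESeq2 (1993 higher and 1732 lower) and 51.3% with array weights. With replicate number as a block in only the groups compared it was 52.2%. It became 54.7% when libraries were scaled on genes with a mean of at least 500 (937 higher and 776 lower), a scaling that shifted the median of all genes by -0.12. With replicate number as a block, 1211 genes were higher and 519 lower. Leaving out high-dose replicate 2 left 391 and 168 calls, leaving out combined replicate 2 left 486 and 163, and leaving out combined replicate 3 left 409 and 151. Without vitamin C replicate 2, which shares in the estimate of the spread, 298 were lower. In none of the settings did a gene called in both change its direction. Of all tested genes, 21.3% had groups that did not overlap with the combined group higher, and 19.1% with it lower. The largest rises and falls were chosen in part for groups that do not overlap, so this adds nothing for them. Groups did not overlap in 1374 of the 1376 genes called higher and 458 of the 469 called lower. Where it is given below for a called gene, it describes the values and adds almost nothing to the call.

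**Figure D1:**
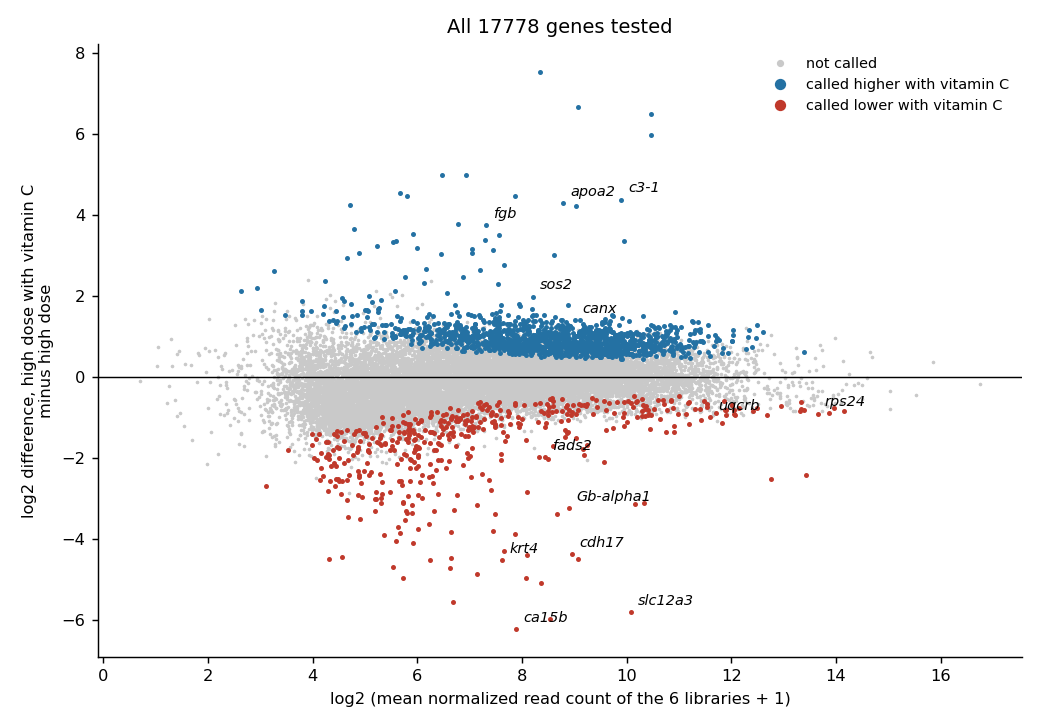
Difference between the combined and the high-dose group (vertical axis, log2) against the mean level of the 6 libraries (horizontal axis, log2) for each of 17778 tested genes. Blue points were called higher (1376) and red points called lower (469); the falls reach -6.23 (ca15b), and most of the higher genes lie below 2.

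The genes that fell furthest included transporters and adhesion molecules of ion-transporting and absorptive epithelium. They stood high in all 3 high-dose libraries and low in all 3 combined libraries. The sodium-chloride cotransporter slc12a3, which reabsorbs salt in the mammalian distal kidney tubule, measured 2606, 1228 and 2550.1 in the high-dose libraries and 33.5, 38.4 and 32.7 in the combined libraries. The groups did not overlap, and the difference was -5.82 ± 0.61 on the log2 scale (standard error of the fit, n = 3 per group, limma adjusted p = 0.000105). Controls measured 58.3, 26.2 and 329.7, so control replicate 3 stood above the other controls, and vitamin C alone gave 39.5, 34.1 and 66.1. Carbonic anhydrase gene ca15b, whose family interconverts carbon dioxide and bicarbonate, fell from 678, 282 and 439 to 2.83, 6.0 and 6.53 (-6.23 ± 0.62, limma adjusted p = 0.000105). For cdh17, a cadherin of intestinal and renal epithelium, the values were 908, 715 and 1227 against 47.7, 36.6 and 48.2 (-4.37 ± 0.52, limma adjusted p = 0.000342). In fabp6, which carries bile acids in the ileum of mammals, high-dose libraries had 175, 298 and 503 and combined libraries 15.4, 32.4 and 17.1 (-3.80 ± 0.59, limma adjusted p = 0.00162). In each of these genes every high-dose library lay above every combined library, and control replicate 3 was the highest control.

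Subunits of the sodium pump, which sets the sodium gradient that such transporters use, were among the called falls. The beta subunit atp1b1b was 2344, 1903 and 2661 at the high dose and 239.6, 252 and 308 with vitamin C added (-3.10 ± 0.39, limma adjusted p = 0.000568), and the alpha subunit atp1a1a.4 was 1454, 944 and 1309.6 and 240.4, 317 and 303 (-2.09 ± 0.36, limma adjusted p = 0.0032). Both fell, without overlap. The more abundant beta subunit paralog atp1b1a was not called, at 4106 ± 114 and 4326 ± 154 (SD, n = 3; limma adjusted p = 0.861). Near-identical copies can share reads, so levels within such families are uncertain.

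In the list of kidney and gut epithelium genes, 20 of 35 passed the filter on low values, 4 were called lower (20%, beside 2.64% of all genes: slc12a3, cdh17, fabp6 and the cobalamin receptor gene CUBN, at -1.24) and 1 higher (5%, beside 7.74%: lrp2a, the endocytic receptor megalin, at 0.86), with a median of -0.79. The summed level of all 35 was 4368 to 6621 in the high-dose libraries, 1575 to 1633 in the combined libraries, 1794 to 3198 in controls and 1609 to 1733 with vitamin C alone. No member was at 0 in all 6 libraries. This list, like the others, was chosen with earlier results of these data known. The lrp2a call was lost without any of high-dose replicates 2 and 3 and of the combined libraries. In the same fits 3 genes of the list were called lower. Whether fewer epithelial cells or less RNA per cell underlay such a difference cannot be told apart in bulk tissue, here or in any group of genes below, and the part of tissue other than testis in the sampled material was not tested.

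Some genes of barrier epithelium of the skin type were also lower in the combined group. Keratins form the filaments of epithelial cells, claudins their tight junctions and plakins their desmosomes. The keratin krt18a.2 was 592, 461 and 871 at the high dose and 9.70, 18.6 and 27.8 with vitamin C (-5.09 ± 0.56, limma adjusted p = 0.000184), and krt4 was 382, 328 and 419.9 against 12.1, 19.2 and 15.5 (-4.52 ± 0.67, limma adjusted p = 0.00134). Claudin gene cldnb went from 94.8, 72.6 and 102 to 4.04, 3.60 and 5.72 (-4.06 ± 0.60, limma adjusted p = 0.00134). All high-dose libraries were above all combined libraries in these 3 genes. The periplakin gene ppl (-2.42), the galectin lgals3b (-2.48) and the keratin krt94 (-1.35) also fell by the same test, with limma adjusted p = 0.0104, 0.00175 and 0.00695. For krt94 the high-dose libraries ranged over 2521 to 3039 and the combined libraries over 811 to 1257. Keratin krt5 fell to 36.4, 24 and 43.3 from 299, 299 and 78.7 (-2.48 ± 0.57, limma adjusted p = 0.0137), and it also lay below the controls, at 363, 122 and 173, and near vitamin C alone, at 57.8, 35.4 and 36.6. The call of krt5 was lost without high-dose replicate 1 or 2 or without combined replicate 2.

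Over the skin-type list, 44 of 50 genes passed the filter, 11 were called lower (25%, beside 2.64% of all genes) and 2 higher (4.55%, beside 7.74%), and the median was -0.76. Of the genes called higher, lgals3a rose by 0.75 and 1 of the entries named PKP3, a plakophilin of desmosomes (ENSORLG00000023370), by 1.42, while another PKP3 entry (ENSORLG00000005902) fell by 1.39. The PKP3 entry that rose had values of 270.0, 183 and 257 at the high dose and 528, 667 and 699.9 with vitamin C (limma adjusted p = 0.00178). The lgals3a call was lost after quantile normalization and without high-dose replicate 1 or 2 or any single combined library. The keratins krt8 and krt18a.1 did not pass the test: krt8 measured 3887 ± 238 and 3778 ± 796 (limma adjusted p = 0.861), and krt18a.1 measured 1555 ± 290.4 and 1763 ± 271 (limma adjusted p = 0.575). The sum over all 50 genes was 18832 to 20641 at the high dose, 13891 to 17213 in the combined group and 15590.5 to 17448 in controls. Leaving out high-dose replicate 1 or 2, or combined replicate 2 or 3, left 7, 6, 6 and 7 genes called lower. The skin-type list was chosen with earlier results of these data known.

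Among the other genes with the largest falls, malb, of the MAL family of membrane proteolipids, fell from 181, 203 and 216 to 2.42, 5.40 and 2.45 (-5.57 ± 0.62). The calcium-binding gene S100P fell from 856, 981 and 1243 to 20.6, 59.96 and 69.4 (-4.49 ± 0.60). The cathepsin gene ctsl.1, a lysosomal protease, fell from 241, 453 and 878 to 13.7, 26.4 and 24.5 (-4.40 ± 0.57). In all 3 genes the groups were far apart, and the limma adjusted p was 0.000201, 0.00077 and 0.000616. Ceramide synthase cers3b (-4.88 ± 0.61), which in mammals makes the ceramides of the skin barrier, zonadhesin-like zanl (-4.31 ± 0.45) and the orphan receptor gprc5c (-3.89 ± 0.54) completed the 12 largest falls, with limma adjusted p = 0.000544, 0.000105 and 0.000866. The desaturase fads2 (ENSORLG00000006358), which makes polyunsaturated fatty acids, fell from 506, 449 and 712 to 167, 131 and 120.0 (-1.97 ± 0.22, limma adjusted p = 0.000201), against a control range of 140.0 to 194. A gene with no symbol in the deposited table, ENSORLG00000017075, fell from 916, 387 and 897 to 6.46, 14.4 and 9.80 (-5.99 ± 0.61, limma adjusted p = 0.000105).

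**Figure D2:**
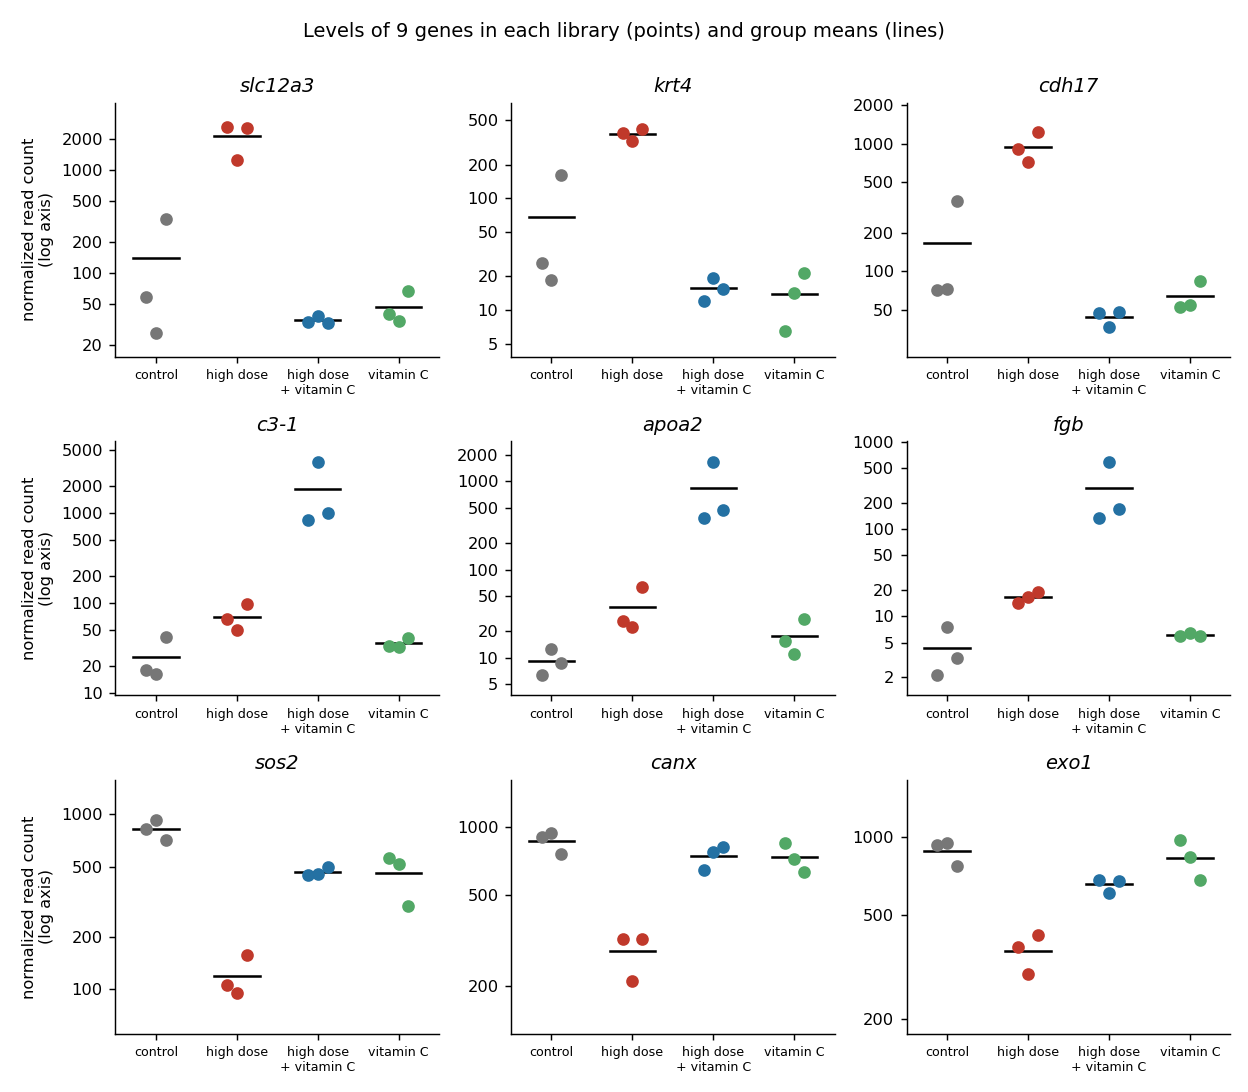
Normalized read counts (log axis) of 9 genes in each library of 4 groups; points are libraries and lines are group means, n = 3. Top row, slc12a3, krt4 and cdh17 are highest in the high-dose libraries; middle row, c3-1, apoa2 and fgb are high in the combined libraries; bottom row, sos2, canx and exo1 are low in the high-dose libraries.

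Several globin, vessel and nerve genes were lower in the combined group. An alpha globin entry, Gb-alpha1 (ENSORLG00000005297), measured 1988, 2942 and 1166 at the high dose and 402, 138 and 176 with vitamin C added (-3.14 ± 0.40, limma adjusted p = 0.000568). Vitamin C alone gave 737, 616 and 731 and controls gave 118, 95.9 and 143, so all libraries with either agent alone lay above the combined libraries. A further Gb-alpha1 entry (ENSORLG00000005210) differed by -3.24 ± 0.50 (limma adjusted p = 0.00164) and the beta-type globin hbbe2 by -2.25 ± 0.46 (limma adjusted p = 0.00795). In red cells, slc4a1a, the band 3 anion exchanger, fell from 138, 353 and 94.6 to 46.1, 39.6 and 26.1 (-2.17 ± 0.47, limma adjusted p = 0.0101), a call lost without high-dose replicate 2 or combined replicate 3. The red cell list holds neither the 2 Gb-alpha1 entries nor hbbe2. Of its 14 members 1 was lower (7.14%, beside 2.64% of all genes), or 4 after quantile normalization. The transferrin receptor tfr1b, at 0.76, was the 1 member called higher (7.14%, beside 7.74% of all genes). Its call was lost without high-dose replicate 2 or any single combined library. The sum of the list was 3321 to 3569.5 at the high dose and 2911 to 3305 in the combined group.

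The endothelial transcription factor fli1 fell from 118, 135 and 115 to 47.7, 62.4 and 61.2 (-1.09 ± 0.23, limma adjusted p = 0.00878), and the VEGF receptor kdrl was 158, 157 and 126 against 73.9, 88.1 and 49.0 (-1.09 ± 0.30, limma adjusted p = 0.0314; lost without high-dose replicate 1 or 2 or combined replicate 1 or 3). These were the 2 of 17 tested vessel genes called lower (11.8%, beside 2.64% of all genes; 20 in the table, median -0.52). Of 33 tested nerve and synapse genes (43 in the table) 2 were lower (6.06%, beside 2.64% of all genes), and the median was -0.64. They were the neuronal growth gene stmn2b (-1.38) and GAD1, which makes the transmitter GABA (-1.69). Of 9 exocrine pancreas genes (10 in the table) 1 was lower (11.1%, beside 2.64%) with a median of -0.83. These nerve calls numbered 0 without high-dose replicate 2 or any single combined library. The summed pancreas level was 847 to 1060.0 at the high dose, 334 to 679 in the combined group and 126 to 296 in controls. The pancreas member was CELA1, an elastase (200.4 ± 53.1 against 84.9 ± 23.4; limma adjusted p = 0.0377, and 0.0561 with the replicate block), and its call was also lost without high-dose replicate 1 or 2 or any single combined library.

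**Figure D3:**
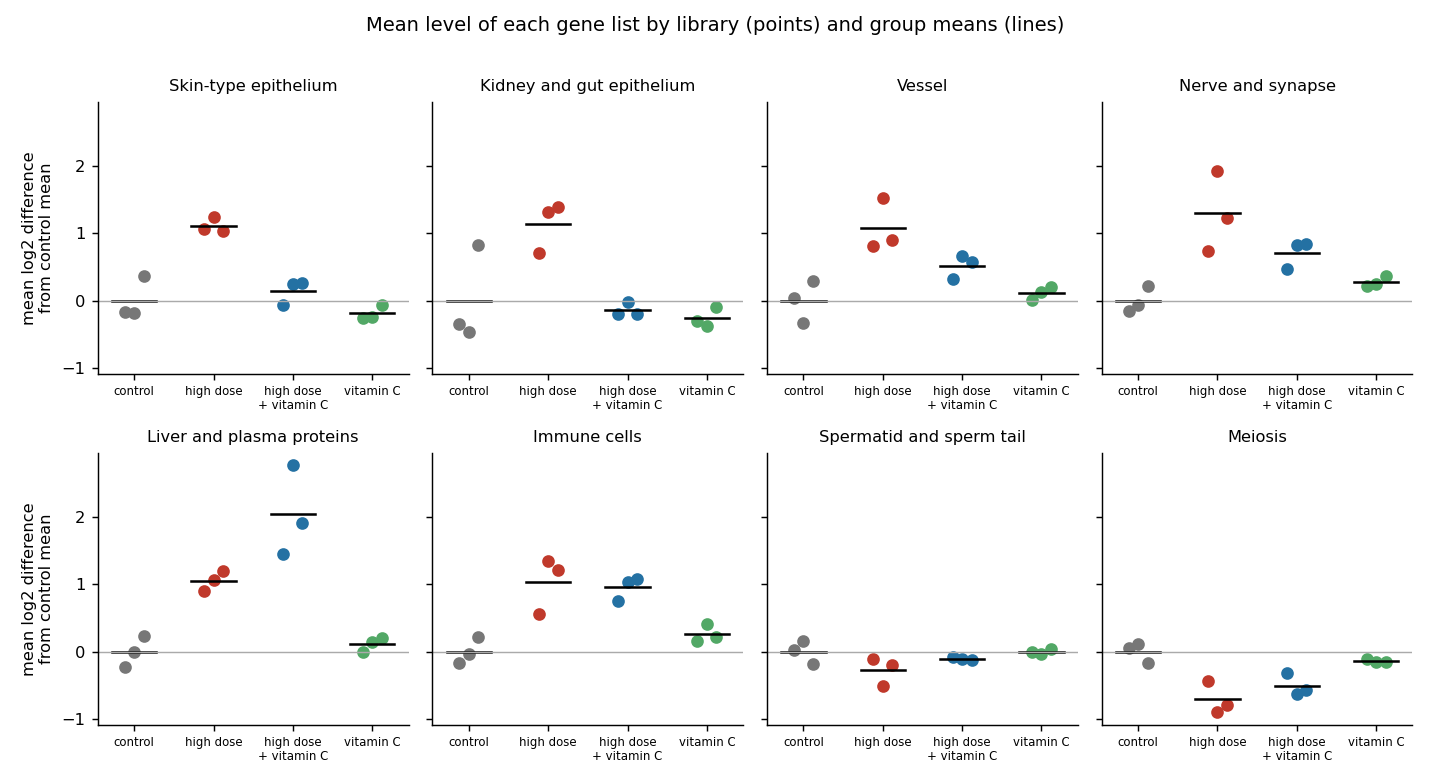
Mean log2 difference from the control mean over the tested members of 8 gene lists (vertical axis), for each library of 4 groups; lines are group means, n = 3. The group means of the epithelial, vessel, nerve and immune cell lists are highest in the high-dose group, and that of the liver and plasma protein list in the combined group. Those of the spermatid and meiosis lists are lowest in the high-dose group.

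Plasma protein genes, of the kind made in the liver, were among the largest rises. Several reached the mean of 50 asked of the genes ranked by size only through the combined group, which favoured rises of this kind: fgb averaged 16.7 in the high-dose group, 4.32 in controls and 299 in the combined group. The same filter favoured falls of genes that were high in the high-dose group. The keratin krt18a.2 reached it only through that group, at 641. It averaged 40.2 in controls, 18.7 in the combined group, 7.87 with vitamin C alone and 112 at the low dose. Complement component c3-1, the central protein of the complement cascade, measured 66.1, 50.1 and 96.7 at the high dose and 840.0, 3647 and 996 with vitamin C added (4.39 ± 0.47, limma adjusted p = 0.000154). Controls measured 18.0, 16.2 and 42.2 and vitamin C alone 33.6, 32.9 and 41.3. Every combined library was above every library of the other 3 groups, and combined replicate 2 was the highest. The apolipoprotein of high-density lipoprotein apoa2 was 25.9, 22.5 and 63.8 against 381, 1678 and 479 (4.29 ± 0.52, limma adjusted p = 0.000447), and apoa1b was 161, 89.3 and 212 against 806, 3485 and 1189 (3.36 ± 0.44, limma adjusted p = 0.000637). Fibrinogen, the clotting protein, rose in both chains measured here: fgb went from 14.4, 16.7 and 19.1 to 133, 594 and 169.9 (3.76 ± 0.58) and fga from 25.9, 44.9 and 20.2 to 156, 613 and 184 (3.14 ± 0.57), with limma adjusted p = 0.00162 and 0.00444. The order of the 3 combined libraries was the same in each of these 5 genes, replicate 2 above 3 above 1.

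The complement factor gene cfbl rose by 3.40 ± 0.59 (limma adjusted p = 0.0032) and tbt-bp1, which in fish encodes a tributyltin-binding plasma protein, by 3.16 ± 0.66 (limma adjusted p = 0.00837). Smaller rises were those of the copper-carrying ferroxidase ceruloplasmin, cp (2.78 ± 0.75, limma adjusted p = 0.0282), of c9, a pore-forming complement component (2.48 ± 0.67, limma adjusted p = 0.03), and of c3-2 (1.79 ± 0.47, limma adjusted p = 0.0259). Calls that depended on single libraries were those of tbt-bp1 (lost without combined replicate 2), cp (lost without high-dose replicate 1 or 3 or combined replicate 2 or 3), c9 (lost without any single high-dose library or combined replicate 2 or 3) and c3-2 (lost without high-dose replicate 2 or 3 or combined replicate 2 or 3). The other 6 plasma protein genes among the largest rises kept their calls in all 25 settings.

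Over the whole liver and plasma protein list, 22 of 27 genes passed the filter, 7 were called higher (31.8%, beside 7.74% of all genes) and 0 lower (limma; 7 higher and 0 lower at an unadjusted p under 0.05, 7 and 0 by both edgeR and DESeq2), and the median was 0.54. Genes of the same list that did not pass the test were the transferrin gene tfa, at 1112 ± 668 and 1787 ± 958 (limma adjusted p = 0.231), the haem-binding hpxa, at 43.4 ± 21.4 and 71.5 ± 43.7 (limma adjusted p = 0.39), ambp, at 83.0 ± 16.9 and 117 ± 29.7 (limma adjusted p = 0.29), and the egg yolk precursor vtg3, at 63.8 ± 58.4 and 33.6 ± 17.9 (limma adjusted p = 0.534). The summed level of the 27 genes was 6792 to 9912 in high-dose libraries, 9288 to 22296 in combined libraries, 6152 to 9024 in controls and 5445 to 6164 with vitamin C alone. Without high-dose replicate 1, 2 or 3, or without combined replicate 2 or 3, the list had 4 calls. It was chosen with earlier results of these data known. The filter, a mean of at least 10, favoured rises of genes that were high only in the combined group. Of the 7 called genes, fgb averaged 299 in that group and 16.7 at the high dose. It averaged 4.32 in controls, 6.08 with vitamin C alone and 8.52 at the low dose, so it passed through the combined group. Liver tissue or its RNA as a source was not tested. The largest rise of all belonged to a gene without a symbol, ENSORLG00000023594, at 0, 18.0 and 0 in high-dose libraries and 270.3, 1309 and 348 in combined libraries (7.55 ± 1.02, limma adjusted p = 0.00077). A further such gene, ENSORLG00000028583, rose from 31.6, 16.1 and 23.4 to 1246, 5707 and 1413 (6.5 ± 0.65, limma adjusted p = 0.000105). Both had the same order of combined libraries as c3-1. Of the high-dose and combined libraries, only the combined ones were high for ENSORLG00000023594, so the filter favoured its rise too.

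The genes sos2 and elk4, of the Ras and MAP kinase cascade that carries growth signals from receptors to the nucleus, were low at the high dose and higher when vitamin C was added. The exchange factor sos2, which loads Ras with GTP, measured 106, 95.0 and 158 at the high dose, 449, 457 and 499 in the combined group and 829, 924 and 714 in controls (1.99 ± 0.30 for the addition of vitamin C, limma adjusted p = 0.00152). The ETS transcription factor elk4, a target of this cascade, measured 94.8, 116 and 132 and 363, 363 and 428 (1.75 ± 0.29, limma adjusted p = 0.00243). In both genes the combined libraries lay above the high-dose libraries, and in elk4 they reached the control range of 318 to 492. A kinase of the cascade, map2k1, did not pass the test, at 284, 179.8 and 224 and 435, 263 and 203 (limma adjusted p = 0.528). Further rises were those of the cell cycle repressor e2f5, from 959.5, 918 and 969 to 3296, 2647 and 2802 (1.61 ± 0.26, limma adjusted p = 0.00236), and of the kinase TAOK2 (1.41 ± 0.40, limma adjusted p = 0.0369), whose call was lost without high-dose replicate 2 or 3, any single combined library, control replicate 1 or vitamin C replicate 2.

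DNA repair, the group of enzymes that mend breaks and mismatches, held several rises. All 68 members of the list passed the filter, 15 were called higher (22.1%, beside 7.74% of all genes) and 0 lower (3 lower at an unadjusted p under 0.05; by edgeR 18 higher and 0 lower, by DESeq2 20 and 1, with scaling on genes with a mean of at least 500 10 and 2), with a median of 0.21. The nuclease exo1, which resects DNA ends, measured 376, 299 and 419.9 at the high dose and 684, 611 and 677 with vitamin C (0.86 ± 0.18, limma adjusted p = 0.00802). The end-joining ligase lig4 measured 414, 372 and 436 and 666, 743 and 831 (0.87 ± 0.16, limma adjusted p = 0.00418), and its partner xrcc4 302, 228 and 298 and 430.3, 489 and 497 (0.78 ± 0.17, limma adjusted p = 0.00903). No high-dose library reached the combined range in these genes. Against controls, exo1 stood between (885 in controls, 657 in the combined group, means of n = 3), while lig4 was at 601 and 747. The count depended on single libraries: 3 repair genes were called higher without high-dose replicate 2, 5 without combined replicate 2 and 2 without combined replicate 3, and the xrcc4 call was lost without high-dose replicate 2 or combined replicate 3.

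In DNA replication, 4 of 40 tested genes rose (10%, beside 7.74% of all genes) and 0 fell (limma; 2 lower at an unadjusted p under 0.05, and 0 by edgeR and 1 by DESeq2), and the median was 0.19. Scaling on genes with a mean of at least 500 gave 1 higher and 2 lower, and quantile normalization 8 and 2. The initiation factor mcm10 rose from 126, 126 and 146 to 261, 220.0 and 243 (0.86 ± 0.17, limma adjusted p = 0.00647). Of 53 tested cell cycle genes 5 rose and 1 fell (9.43% and 1.89%, beside 7.74% and 2.64% of all genes). Without high-dose replicate 2, combined replicate 2 or combined replicate 3, 1 replication gene was still called higher in each case, and 0, 2 and 0 cell cycle genes were. Cell cycle genes called higher numbered 3 without high-dose replicate 1 or 3 and 2 without combined replicate 1.

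Ascorbate is a cofactor of histone demethylases of the JmjC type, and the DNA methylation machinery acts beside them on chromatin. Of 19 JmjC-type demethylases and relatives, which remove methyl groups from histones or hydroxylate proteins, 5 were called higher (26.3%, beside 7.74% of all genes) and 0 lower (0 lower also at an unadjusted p under 0.05, by edgeR and by DESeq2), with a median of 0.42. TMM scaling gave 8 and scaling on genes with a mean of at least 500 gave 3. The family member jmjd6 measured 348, 299 and 372 at the high dose and 842, 669 and 969 in the combined group (1.27 ± 0.19, limma adjusted p = 0.0016), and the H3K4 demethylase kdm5c 465, 405 and 440.1 and 695, 664 and 727 (0.67 ± 0.15, limma adjusted p = 0.0135). Neither gene's groups overlapped, and kdm5c stayed below the controls, at 1057, 1189.9 and 933. Of 46 tested genes of DNA and histone methylation 5 rose (10.9%, beside 7.74% of all genes; median 0.19; 3 higher and 1 lower with scaling on genes with a mean of at least 500), among them suz12a, a subunit of the Polycomb repressive complex (136 ± 45.2 to 282 ± 54.2, limma adjusted p = 0.0124). The DNA methyltransferase dnmt1 (504 ± 108 and 722 ± 46.1, limma adjusted p = 0.159), the methylcytosine dioxygenases TET1 (limma adjusted p = 0.403), TET2 (0.256) and tet3 (0.136), and the histone methyltransferase ezh2 (667 ± 80.6 and 918 ± 93.0, limma adjusted p = 0.13) did not pass the test. Without high-dose replicate 2 the calls in the 2 lists fell to 1 and 0, without high-dose replicate 3 to 3 and 3, without combined replicate 1 to 4 and 2, without combined replicate 2 to 2 and 1, and without combined replicate 3 to 1 and 0. The kdm5c call was lost without high-dose replicate 2 or combined replicate 3, and the suz12a call without either of these or combined replicate 2.

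Other ascorbate-dependent enzymes and vitamin C transporters formed a further list. In it, 30 of 34 genes passed the filter, 3 were called higher (10%, beside 7.74% of all genes) and 0 lower (2 lower at an unadjusted p under 0.05, 0 by edgeR and 2 by DESeq2), and the median was -0.01. The called genes were the collagen lysyl hydroxylase plod3 (584 ± 115 to 1186 ± 150.3, limma adjusted p = 0.0373, 0.0509 with the replicate block), the oxygen-sensing prolyl hydroxylase egln3 (166 ± 47.0 to 305 ± 86.7, limma adjusted p = 0.0402), whose groups overlapped, and the nucleic acid dioxygenase alkbh1 (297 ± 42.7 to 446 ± 46.7, limma adjusted p = 0.0469, 0.0612 with the block). After quantile normalization 1 was called higher, and 0 were with scaling on genes with a mean of at least 500. Only egln3 kept its call with the block, and 0, 0, 1, 0 and 0 of the 30 were called higher without high-dose replicate 1, without high-dose replicate 2 and without combined replicate 1, 2 and 3. Collagen prolyl hydroxylase p4ha1b was at 234 ± 49.2 and 215 ± 19.7 (limma adjusted p = 0.746) and the ascorbate transporter SLC23A2 at 56.7 ± 28.3 and 51.3 ± 6.52 (limma adjusted p = 0.999).

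Antioxidant genes were mostly not called: of 53 tested (55 in the table) 1 rose and 1 fell (1.89% each, beside 7.74% and 2.64% of all genes), with a median of -0.05. Scaling on genes with a mean of at least 500 gave 0 higher and 4 lower, and quantile normalization 1 and 4. The superoxide dismutases sod1 (8058 ± 1806 and 5903 ± 1127, limma adjusted p = 0.173) and sod2 (545 ± 56.0 and 507 ± 35.6, 0.845), the catalase gene cat (517 ± 49.7 and 552 ± 65.7, 0.699), GPX4, which reduces lipid peroxides (364 ± 116 and 236 ± 94.4, 0.128), and nfe2l2a, which encodes the Nrf2 regulator of this response (351 ± 67.4 and 363 ± 29.5, 0.834), gave limma adjusted p-values above 0.05. The glutathione transferase gstr (ENSORLG00000022681) fell from 712, 1025 and 1033 to 235, 340.0 and 278 (-1.69 ± 0.40, limma adjusted p = 0.0157), a call lost without high-dose replicate 2 or combined replicate 1 or 3. The quinone reductase nqo1, a classical Nrf2 target, was 373, 301 and 214 at the high dose and 455, 579.8 and 433 with vitamin C (limma adjusted p = 0.349). It did not pass the test, and it lay above the controls, at 81.7, 86.0 and 83.1, in both groups and with vitamin C alone, at 550.1, 540.5 and 938.

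**Figure D4:**
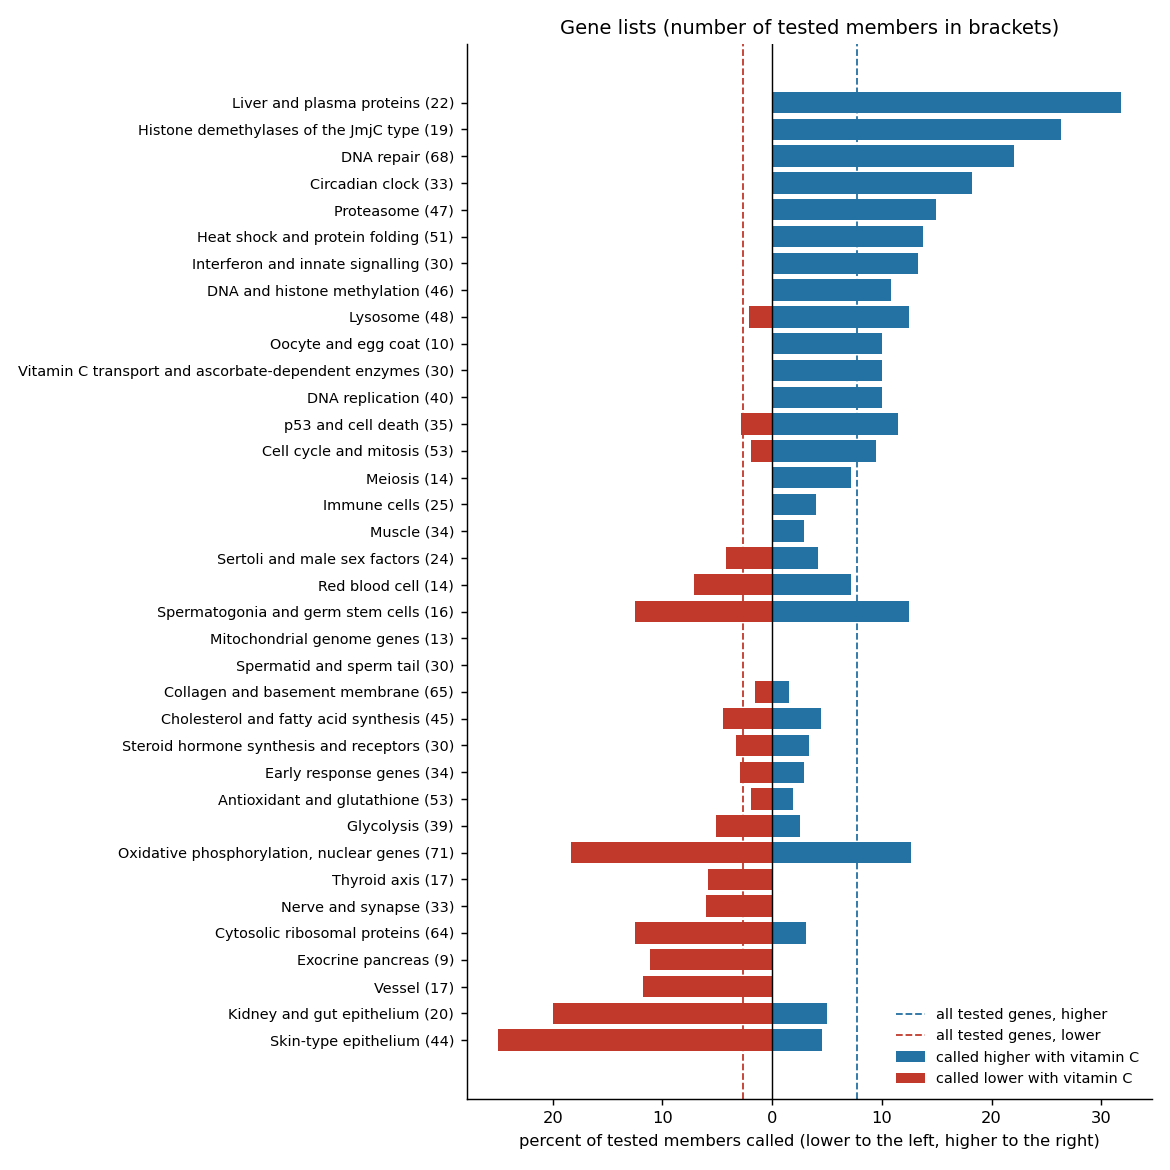
Percent of the tested members of each of 36 gene lists called higher (bars to the right) or lower (bars to the left) in the combined group against the high-dose group. Dashed lines mark all tested genes, 7.74% higher and 2.64% lower, not matched to the lists for level. The lists were chosen with earlier results of these data known. Liver and plasma protein genes extend furthest to the right and skin-type epithelium furthest to the left.

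Protein folding and breakdown were covered by 3 lists. Of 51 tested heat shock and folding genes 7 rose (13.7%, beside 7.74% of all genes; 11 with TMM scaling) and 0 fell (3 lower at an unadjusted p under 0.05; by edgeR 0 and by DESeq2 0 lower), with a median of 0.14. Calnexin, canx, which folds glycoproteins in the endoplasmic reticulum, measured 322, 211 and 321 at the high dose and 643, 772 and 815 in the combined group (1.4 ± 0.20, limma adjusted p = 0.00119), and sel1l, which delivers misfolded proteins for degradation, 1049, 811 and 1234 and 1742, 1765 and 1820.3 (0.80 ± 0.16, limma adjusted p = 0.00768). The groups were apart in both genes, and the combined range of canx overlapped the control range of 762 to 941. Among 48 tested lysosome genes 6 rose and 1 fell (12.5% and 2.08%, beside 7.74% and 2.64% of all genes). The sulfatase sgsh, which degrades heparan sulfate, went from 540.1, 355 and 482 to 836, 1061 and 939 (1.06 ± 0.17, limma adjusted p = 0.00179). Of 47 proteasome genes 7 rose (14.9%, beside 7.74% of all genes) and 0 fell with the deposited scaling. But 2 rose and 9 fell after quantile normalization, and 5 rose and 7 fell when scaled on genes with a mean of at least 500. The direction of that list thus depended on the scaling. Without high-dose replicate 2, combined replicate 2 and combined replicate 3 the proteasome rises numbered 0, 1 and 0. Folding genes called higher numbered 4, 3 and 2 without high-dose replicate 2, combined replicate 2 and combined replicate 3, and lysosome genes 3, 2 and 2.

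Circadian genes time daily rhythms, and p53 controls the response to DNA damage. In the clock list 6 of 33 tested genes rose (18.2%, beside 7.74% of all genes) and 0 fell (1 lower at an unadjusted p under 0.05, 0 by edgeR, 1 by DESeq2), although the median was 0.03. They included the repressor nfil3, at 135, 140.0 and 181 and 371, 399 and 439 (1.41 ± 0.22, limma adjusted p = 0.00178), the activator hlfa (1.0 ± 0.19, limma adjusted p = 0.00618) and the kinase csnk1db (0.92 ± 0.18, limma adjusted p = 0.0059). The count was 3 without high-dose replicate 1 or 2 or without combined replicate 2 or 3, and 4 without combined replicate 1. Of 35 p53 and cell death genes 4 rose and 1 fell (11.4% and 2.86%, beside 7.74% and 2.64% of all genes). The p53 antagonist mdm2 measured 1014, 879 and 1193 and 1801, 2157 and 2189 (1.0 ± 0.19, limma adjusted p = 0.00493), and the cell death effector BAX 37.3, 60.4 and 51.0 and 105, 87.5 and 103 (1.0 ± 0.22, limma adjusted p = 0.0119). Controls were at 2152, 2371 and 1637 for mdm2 and at 110.3, 111 and 97.8 for BAX, and the BAX call was lost without combined replicate 3. The list had 2, 2 and 1 genes called higher without high-dose replicate 2, combined replicate 2 and combined replicate 3.

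Respiratory chain genes of the nuclear genome moved both ways. Of 71 tested (77 in the table) 13 were called lower (18.3%, beside 2.64% of all genes) and 9 higher (12.7%, beside 7.74%), and the median was -0.40. The complex III subunit uqcrb measured 4424, 4414 and 3554 at the high dose and 2524, 1778 and 1941 with vitamin C (-1.0 ± 0.19, limma adjusted p = 0.00647), and ndufa4b, a subunit of cytochrome oxidase, 339, 258 and 313 and 114, 75.5 and 59.6 (-1.90 ± 0.26, limma adjusted p = 0.000854). The catalytic subunit of ATP synthase atp5f1b went the other way, from 1692, 1266 and 1668 to 3377, 2996 and 3292 (1.07 ± 0.21, limma adjusted p = 0.00661). Each of the 3 had groups that did not overlap, as did nearly all called genes. None of the 13 genes of the mitochondrial genome was called (0 higher and 0 lower also at an unadjusted p under 0.05, by edgeR 0 and 0, by DESeq2 0 and 0), with a median of -0.03. Of 64 tested cytosolic ribosomal protein genes 8 fell and 2 rose (12.5% and 3.12%, beside 2.64% and 7.74% of all genes), with a median of -0.38. The gene rps24 went from 17912, 15497 and 16725 to 10248, 8448 and 8189 (-0.90 ± 0.21, limma adjusted p = 0.0131). Its call was lost after quantile normalization and without combined replicate 2 or 3. The ribosomal count was 2 without high-dose replicate 1, 5 without high-dose replicate 2 and 0 without combined replicate 2 or 3. The lower respiratory count was 5, 5, 3 and 2 without these 4 libraries in that order, and the higher one 6, 3, 4 and 3, with 5 without combined replicate 1. Scaling on genes with a mean of at least 500 gave 20 lower respiratory and 23 lower ribosomal genes, and quantile normalization gave 26 and 4.

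Genes of the germ line are given from sperm back to the stem cells. Of 30 tested spermatid and sperm tail genes (32 in the table) 0 were called (limma; 2 higher and 0 lower at an unadjusted p under 0.05, by edgeR 0 and 0, by DESeq2 0 and 0), and the median was 0.15. The sperm tail gene tekt2 was 982, 633 and 808 at the high dose and 1174, 796 and 807 with vitamin C (limma adjusted p = 0.642), the meiotic recombinase dmc1 2517, 2346 and 2426 and 3011, 2990.0 and 3343 (0.367) and the synaptonemal complex gene sycp1 9986, 5665 and 3364 and 5276, 2249.6 and 2317 (0.108). Of 14 meiosis genes 1 rose (7.14%, beside 7.74% of all genes), with a median of 0.22, and none was called higher without high-dose replicate 2 or combined replicate 2 or 3. In the spermatogonial list 2 of 16 tested genes rose and 2 fell (12.5% each, beside 7.74% and 2.64% of all genes), scaling on genes with a mean of at least 500 gave 0 higher and 4 lower, and neither count was above 1 without any single combined library or high-dose replicate 2 or 3. The receptor kita, which marks spermatogonia and other cells, fell from 54.6, 93.7 and 52.1 to 13.3, 26.4 and 27.8 (-1.54 ± 0.38, limma adjusted p = 0.0195), a call lost without high-dose replicate 2 or combined replicate 1. The germ cell helicase ddx4 measured 8555, 7728 and 8781 and 15164, 11158 and 12695 (0.63 ± 0.18, limma adjusted p = 0.0397), and that call held in 11 of 25 other settings.

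For Sertoli cells, the anti-Müllerian hormone gene amh (ENSORLG00000015951) was 5679, 3372 and 4208 and 7908, 5005 and 5516 (limma adjusted p = 0.256), against 12756, 14333 and 9639.7 in controls. The male gonad factor dmrt1 was 615, 658 and 884 and 1126, 1909 and 1815 (1.15 ± 0.38, limma adjusted p = 0.0617), with a mean of 920.0 in controls and a p-value short of the threshold. For dmrt1 every combined library was above every high-dose library, as in 21.3% of all tested genes. Clusterin, clu, a secreted chaperone of Sertoli cells in mammals, rose from 241, 167 and 270.0 to 429, 504 and 631 (1.21 ± 0.21, limma adjusted p = 0.00366). It was 1 of the 2 calls among 24 tested Sertoli and male sex genes (1 higher and 1 lower, 4.17% each, beside 7.74% and 2.64% of all genes). In steroid synthesis, 1 of 30 tested genes rose and 1 fell (3.33% each, beside the same shares). The gene star, which moves cholesterol into mitochondria, was 621, 415 and 885 and 434, 253 and 222 (-1.07 ± 0.27, limma adjusted p = 0.0212), with groups that overlapped and a call lost without high-dose replicate 3 or combined replicate 2 or 3. The ferredoxin reductase FDXR, which supplies electrons to steroidogenic cytochromes, rose from 824, 706 and 817 to 1316, 1362 and 1835 (0.93 ± 0.17, limma adjusted p = 0.00496). The gonadotropin receptors fshr and lhcgr gave limma adjusted p = 0.65 and 0.0877.

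In the thyroid axis, the system perchlorate acts on, 17 of 23 genes passed the filter. By limma 1 was called lower (5.88%, beside 2.64% of all genes) and 0 higher. At an unadjusted p under 0.05, 4 were lower and 0 higher, by edgeR 2 and 0, and by DESeq2 4 and 0. Of all 17778 tested genes, 4968 were under that unadjusted p in either direction, edgeR called 795 lower and DESeq2 1732. These counts are thus no sign of a difference particular to the thyroid list. The gene called by limma was the thyroid hormone receptor thra, at 23.0, 25.0 and 23.4 and 5.66, 11.4 and 6.53 (-1.54 ± 0.43, limma adjusted p = 0.0354). These are low values, and the call was lost after quantile normalization and without any single library of the 6. The iodide transporter slc5a5 was 207, 221 and 306 and 276, 328 and 336, with controls at 261, 278 and 265 (limma adjusted p = 0.483 for the addition of vitamin C). The deiodinase dio2, which activates thyroid hormone, was 20.1, 12.2 and 29.8 and 7.68, 5.40 and 5.72 (limma adjusted p = 0.0774). Its groups did not overlap, as in 19.1% of all tested genes with the combined group lower, and the difference missed the threshold.

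Both groups can also be set beside the controls, though the comparisons share libraries. Against controls, 6886 genes (38.7%) were called at the high dose, 3248 higher (18.3%) and 3638 lower (20.5%). Scaling on genes with a mean of at least 500 gave 4915 higher and 2230 lower, and a filter at a mean of 50 gave 1336 and 3379. In the combined group 643 genes (3.62%) were called, 419 higher (2.36%) and 224 lower (1.26%), or 451 and 91 with that scaling and 141 and 121 with that filter. The higher count at the high dose was 2100 without high-dose replicate 2 and 2155 without control replicate 2. For slc12a3 the difference from controls was 4.63 ± 0.61 at the high dose and -1.18 ± 0.61 in the combined group, for krt18a.2 4.45 ± 0.56 and -0.64 ± 0.56, and for canx -1.62 ± 0.20 and -0.22 ± 0.20. None of these 3 passed the test against controls in the combined group (limma adjusted p = 0.27, 0.547 and 0.567). The plasma protein genes stood further from controls in the combined group, with c3-1 at 1.52 ± 0.47 and 5.91 ± 0.47 and fgb at 1.86 ± 0.58 and 5.62 ± 0.58 (limma adjusted p in the combined group 7.90e-06 and 9.09e-05). The count against controls in the combined group was 44 higher and 1 lower without combined replicate 2, 48 and 1 without combined replicate 3, 64 and 2 without control replicate 1, 67 and 4 without control replicate 2, and 609 and 528 without control replicate 3.

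**Figure D5:**
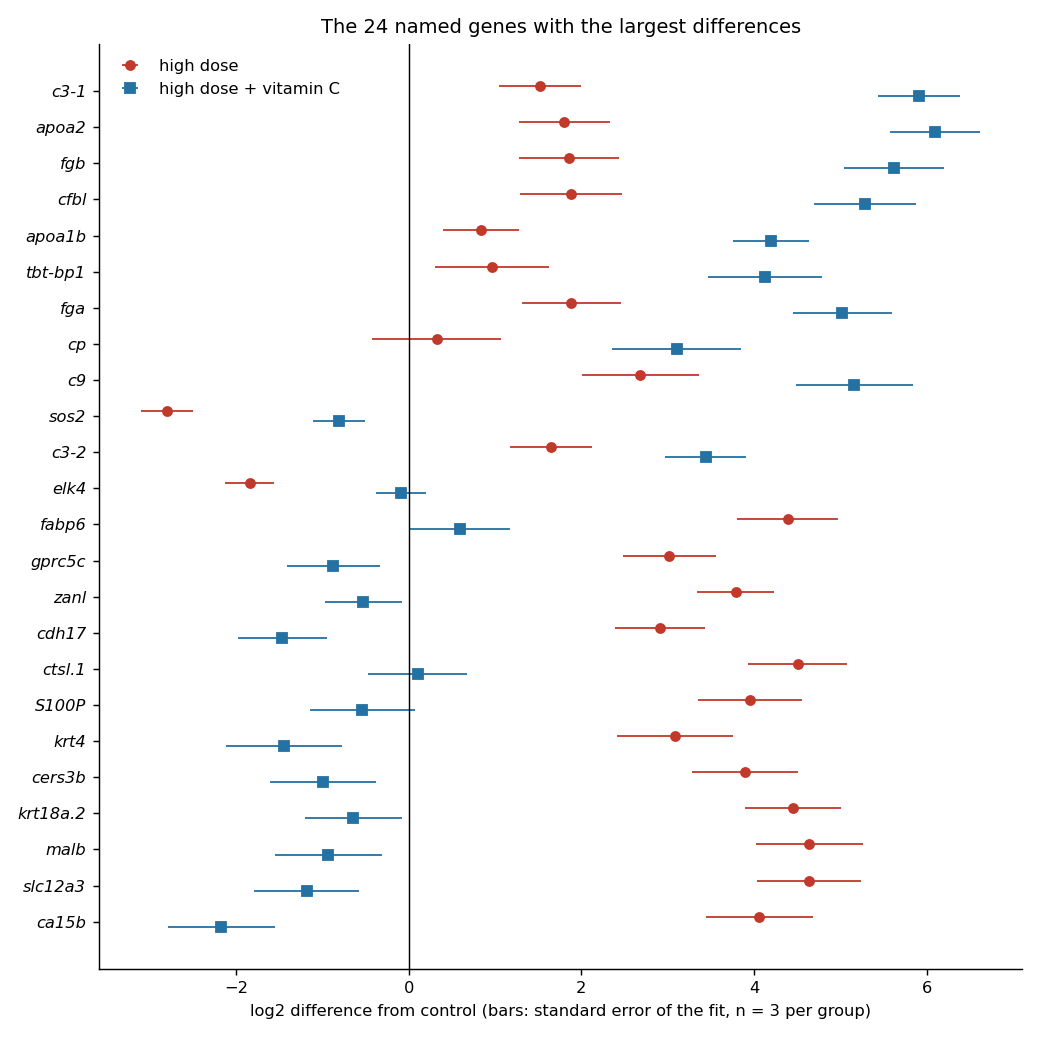
Log2 difference from control (horizontal axis) of the high-dose group (red circles) and the combined group (blue squares) for the 12 largest named rises and 12 largest named falls; bars are standard errors of the fit, n = 3 per group. Genes in the lower part return towards 0 with vitamin C, plasma protein genes in the upper part move further from 0.

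Some genes that differed from controls at the high dose also did so with vitamin C added. Egg coat gene zp3b measured 89.1, 114 and 67.0 at the high dose, 112, 169 and 133 in the combined group and 21.2, 32.4 and 21.4 in controls (combined against controls 2.43 ± 0.47, limma adjusted p = 0.0164). The gene alv, for the protease alveolin that hardens the egg envelope in fish, in the same order measured 161, 128 and 94.6, 174, 188 and 140.5 and 28.6, 27.4 and 27.5 (2.53 ± 0.47, limma adjusted p = 0.012). Vitamin C alone gave 256, 247 and 379 for alv, the highest of the 4 groups. Neural transcription factor genes did likewise: sox1b was 57.5, 324 and 123, 42.8, 101 and 183 and 3.18, 3.74 and 10.7 (3.93 ± 0.60, limma adjusted p = 0.00348) and ebf3a 68.9, 263 and 136, 46.9, 102 and 98 and 7.42, 8.72 and 17.4 (2.78 ± 0.48, limma adjusted p = 0.00881). The combined libraries overlapped the high-dose range in zp3b, alv, sox1b and ebf3a. On the low side, BIRC6, an inhibitor of apoptosis, was 244, 142 and 212, 425, 325 and 363 and 1336, 1395 and 702 (-1.56 ± 0.33, limma adjusted p = 0.0198). All of these calls belong to a comparison whose counts changed with single libraries, as given above.

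The vitamin C difference itself was compared between fish with and without perchlorate. By the interaction term, which called 8.08% of the genes, 996 genes (5.6%) had a higher and 440 (2.47%) a lower vitamin C effect with perchlorate than without it. Scaling on genes with a mean of at least 500 gave 654 higher and 647 lower. For slc12a3 the interaction was -4.99 ± 0.86 (limma adjusted p = 0.00966), for sos2 2.87 ± 0.43 (0.00726), for canx 1.65 ± 0.29 (0.00966) and for c3-1 3.78 ± 0.67 (0.00984). In krt4 it was -2.82 ± 0.95 and in jmjd6 0.83 ± 0.28, which did not pass the threshold (limma adjusted p = 0.074 and 0.0705). The interaction also uses the control and vitamin C libraries, and 92 higher and 43 lower genes were called without control replicate 1, 95 and 38 without control replicate 2, 192 and 63 without vitamin C replicate 2 and 97 and 35 without vitamin C replicate 3. Without high-dose replicate 2 the counts were 318 and 122, and without combined replicate 1, 2 and 3 they were 660 and 333, 233 and 78, and 194 and 73.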

How the data were processed

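Testis RNA of medaka was measured in 15 libraries, 3 in each of 5 groups. The labels' protocols name the ZR-Duet DNA/RNA MiniPrep for extraction and NEBNext Ultra II RNA reagents for library construction. The tools listed per the submitters' processing notes are fastp 0.23.2, STAR 2.7.7a and DESeq2 1.34.0, with no parameters. Neither the genome build nor the way reads were counted, strand included, is given in the sources used here. This leaves near-identical, overlapping and antisense genes uncertain. What the authors deposited is 1 signal value for every gene in every library, a normalized read count, over 23028 genes.

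Within a library the values rose in even steps, and all 345420 values (100%) came out as a whole read count to within 0.001 once divided by the step. Totals were 3.21 to 21.3 M reads. A chi-square of these counts found no pair of replicates that agreed within sampling noise. Per degree of freedom it was 32.4 to 145 between low-dose replicates and 10.2 to 17.2 between high-dose replicates. Combined replicates 2 and 3 gave 4.81, and the pairs with combined replicate 1 gave 32.9 and 25.2. For the same spread this measure grows with read depth. High-dose replicate 1 was the shallowest library and combined replicate 1 the deepest, so the values do not rank the groups by spread. The fit pools the spread of all 5 groups, so the spread of the low-dose group enters every standard error. Genes averaging at least 10 (17778) were tested with limma 3.58.1 in R 4.3.3, with log2(value + 1) as the response, a trend of variance on level and all 15 libraries fitted together. Differences are on that scale, which understates changes of low genes, and carry the standard error of the fit. Calls needed a Benjamini-Hochberg adjusted p under 0.05 over all tested genes. The steps were tested on simulated data. They recovered 52 of 66 genes changed 4-fold, 12 of 67 changed 2-fold and 0 of 67 changed 1.5-fold. A gene that did not pass the test can therefore still differ. No other genes of the 17778 simulated were changed, and the simulation gave 67 calls, against 1845 in the data. The adjusted p depends on how many genes differ, so these rates do not give the power of the test in the data. Alternatives were edgeR 4.0.16 and DESeq2 1.42.0 on the recovered reads, other scalings, filters and pseudocounts, array weights, a replicate block and leaving out single libraries. Scaling on genes with a mean of at least 500, and leaving out control and vitamin C libraries, were added after seeing the data.

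Deviations from the group mean correlated between same-numbered high-dose and combined libraries at 0.361, 0.198 and 0.124, all above 0.1. The main fit held no block, so its counts, standard errors and p-values are unpaired. Fits with replicate number as a block were alternatives, and their values are given where they change a call. High-dose replicate 2 and combined replicate 3, which differ in number, correlated at 0.192, and the other unlike pairs at -0.287 to 0.0354. The labels do not say what a number stands for.

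The comparison, the 36 gene lists and the genes named were chosen with earlier results of these data known. The rule for named genes took the 12 largest rises and falls among called genes having a symbol, a mean of 50 or more and groups that do not overlap, then up to 3 called genes from every list by adjusted p, the 5 largest interaction effects in each direction, and a panel. The text gives a part of these. Added after their values were seen were the sodium pump genes, ppl, evpla, krt5, krt8, krt18a.1, krt94, lgals3a, lgals3b, lrp2a, CUBN, PKP3, hbbe2, tfa, hpxa, ambp, vtg3, map2k1, e2f5, TAOK2, alv, sox1b, ebf3a, BIRC6 and the genes without a symbol. No set test was run, and lists are described by counts and medians.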

Additional observations from a re-analysis of the deposited data

Results flagged for a closer look

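The effect of vitamin C was compared between fish with and without perchlorate by the interaction term of the fit, and each value below is that difference of 2 differences on the log2 scale, called at an adjusted p under 0.05 (limma). In all, 996 genes had a higher and 440 a lower value with perchlorate. Among plasma protein genes the values were positive for c3-1 (3.78), apoa2 (3.46), fgb (3.22), apoa1b (3.13), tbt-bp1 (3.23) and cp (3.62). Of the 22 tested liver and plasma protein genes the interaction called 4 higher and 0 lower, beside 5.6% and 2.47% of all genes. It did not call fga (2.26), c9 (1.45) or f2 (1.25), with limma adjusted p = 0.09, 0.333 and 0.163. The rises without a symbol gave ENSORLG00000023594 (6.52) and ENSORLG00000028583 (5.85).

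Several of the epithelial and transport genes named gave negative values, in ca15b (-4.06), slc12a3 (-4.99), malb (-3.39), krt18a.2 (-3.40), cers3b (-3.58) and ctsl.1 (-3.42) as well as in cdh17 (-3.41), zanl (-3.61), fabp6 (-3.74), cldnb (-3.05), atp1b1b (-2.88) and atp1a1a.4 (-1.84). The desaturase fads2 gave -1.92, the gene without a symbol ENSORLG00000017075 gave -4.09, and 1 PKP3 entry and lrp2a went the other way (1.47 and 1.72). So did evpla of the skin-type list (3.26, limma adjusted p = 0.00955), though it was not called between the combined and the high-dose group (0.57, limma adjusted p = 0.346). Its mean was 86.4 at the high dose and 140 in the combined group, against 135 in controls and 20.1 with vitamin C alone. Of the 44 tested skin-type genes the interaction called 2 higher and 2 lower. Of the 20 tested kidney and gut genes it called 1 higher and 3 lower. Over all genes the shares were 5.6% and 2.47%. In red cell, vessel and pancreas genes the values were Gb-alpha1 (ENSORLG00000005210) (-5.99), Gb-alpha1 (ENSORLG00000005297) (-5.69), hbbe2 (-3.29), slc4a1a (-2.59), tfr1b (1.19), fli1 (-1.17) and CELA1 (-2.55).

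Signalling and survival genes gave sos2 (2.87), elk4 (1.71), TAOK2 (2.08), BIRC6 (2.27), mdm2 (1.18) and BAX (1.12). Repair, replication and chromatin genes gave exo1 (0.96), xrcc4 (0.83), mcm10 (1.10), kdm5c (1.11), suz12a (1.26) and ezh2 (0.96). Folding, lysosome and clock genes gave canx (1.65), sel1l (0.93), sgsh (0.98), csnk1db (0.90) and hlfa (1.20). Mitochondrial and ribosomal genes gave ndufa4b (-2.05), uqcrb (-1.32), atp5f1b (1.06) and rps24 (-1.38), and testis genes gave kita (-2.24), clu (1.53) and FDXR (1.16). The egg envelope gene alv and the neural gene sox1b gave -2.92 and -2.93. Nerve, immune and glycolysis genes gave GAD1 (-2.89), traf3 (1.33), mpx (2.95) and aldocb (1.26). All of these rest on 3 libraries in each of 4 groups.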

How the results depend on the processing

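In the comparison of the combined with the high-dose group, no gene called both in the main and in another setting changed direction. Of 3462 gene values under alternatives, 3026 kept their direction and their side of the threshold, 315 lost and 80 gained a call, and 41 changed sign without a call in either. Genes called higher (1376) numbered 528 with an added 2-fold minimum, 3447 with array weights, and 391 to 1153 with 1 of the 6 libraries left out (1002 to 1282 with 1 control or vitamin C library left out). Genes called lower (469) numbered 1732 with DESeq2, 795 with edgeR, 3272 with array weights, 1092 in a fit of only the groups compared, 906 after quantile normalization, 776 with scaling on genes with a mean of at least 500, and 151 to 498 with 1 of the 6 libraries left out (298 to 431 with 1 control or vitamin C library left out). The cause of these differences was not tested. Fitting only the groups compared uses fewer libraries. It also leaves the low-dose libraries, whose replicates gave the largest chi-square (145 per degree of freedom), out of the estimate of the spread.

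Replicate numbers were paired only in the block fits, not in the main fit. With the replicate block in all libraries 1211 genes were higher and 519 lower. With the block in only the groups compared 2847 were higher and 2602 lower. Among the genes described, the block over all libraries ended the calls of CELA1, plod3, alkbh1 and mpx.

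For the interaction, genes higher (996) numbered 1791 with DESeq2, 4415 with array weights, 2838 in only the groups compared, 654 (with 647 lower) with scaling on genes with a mean of at least 500, and 92 to 1263 with 1 library left out. Genes lower (440) numbered 1362, 4440 and 2217 with DESeq2, array weights and only the groups compared, and 35 to 577 with 1 library left out. Against controls, genes higher in the combined group (419) numbered 1018 with DESeq2, 4402 with array weights, 141 with a mean of at least 50, 1735 in only the groups compared, 265 with a pseudocount of 8, 235 after quantile normalization, and 44 to 609 with 1 library left out. Genes lower (224) numbered 915 with DESeq2, 130 with TMM scaling, 113 with an added 2-fold minimum, 5472 with array weights, 121 with a mean of at least 50, 1969 in only the groups compared, 108 after quantile normalization, 91 with scaling on genes with a mean of at least 500, and 1 to 528 with 1 library left out. High dose against control gave 5506 higher genes with array weights, 1336 with a mean of at least 50, 4915 with scaling on genes with a mean of at least 500, and 2100 to 3330 with 1 library left out, where the main count was 3248. It gave 1666 lower genes with an added 2-fold minimum, 2230 with that scaling and 2517 to 3534 with 1 library left out, against 3638. Counts of list members moved by over 1.5 times in 553 of 1440 cases. Depth limits low genes most in high-dose replicate 1, with 3.21 M reads.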

Other observations

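The remaining gene lists are given beside 7.74% of all tested genes called higher and 2.64% called lower. Of 30 tested interferon and innate signalling genes 4 were higher (13.3%; 1 higher and 1 lower with scaling on genes with a mean of at least 500). They included the signalling adaptor traf3, at 97.7, 64.2 and 91.4 at the high dose and 184, 196 and 177 in the combined group (1.15 ± 0.23, limma adjusted p = 0.00704). Leaving out high-dose replicate 1 or 2 or combined replicate 2 or 3 left 1 of these interferon calls, and leaving out combined replicate 1 left 2. Of 25 tested immune cell genes 1 was higher (4%), the granulocyte peroxidase mpx (ENSORLG00000009297), at 169, 135 and 149.9 and 293, 466 and 621 (limma adjusted p = 0.0468, 0.0678 with the replicate block). In the egg coat list 1 of 10 was higher (10%), in muscle genes 1 of 34 (2.94%), and among collagen and basement membrane genes 1 of 65 was higher and 1 lower (1.54% each; 3 higher and 4 lower after quantile normalization). Glycolysis had 1 of 39 genes higher and 2 lower (2.56% and 5.13%), with the aldolase aldocb at 1261, 912 and 1150.2 and 1981, 2109 and 2480.2 (limma adjusted p = 0.00856; lost without high-dose replicate 2 or combined replicate 3). Cholesterol and fatty acid synthesis had 2 of 45 higher and 2 lower (4.44% each; 6 and 5 after quantile normalization, 1 and 5 with scaling on genes with a mean of at least 500), and early response genes 1 of 34 higher and 1 lower (2.94% each). The medians of these 8 lists lay between -0.301 and 0.146, beside -0.10 over all tested genes.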
